A study of Bos taurus with 72 samples.

Results

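Leucine, given alone to bovine mammary epithelial cells (BMECs) in a medium that held no other essential amino acid (EAA), was compared with the same medium without any EAA (NEG). The leucine treatment (Leu) and NEG had 6 RNA-seq libraries each, 12 of the 72 libraries of a study with 12 treatments. The other treatments were 9 media with 1 EAA each (arginine, histidine, isoleucine, lysine, methionine, phenylalanine, threonine, tryptophan or valine, named Arg, His, Ile, Lys, Met, Phe, Thr, Trp and Val) and the complete DMEM-F12 medium (POS). All cells were wild-type primary BMECs from mammary gland, kept overnight without serum and then 6 h in the treatment medium, where each EAA stood at its level in POS. The cells were at passage 6 and had been freed of fibroblasts by their different sensitivity to trypsin. Leu_1 detected few genes, so comparisons were made with Leu_2 to Leu_6 (n = 5 libraries) and then repeated with Leu_1. Neither the labels nor the methods tie the libraries to separate animals, so p-values measure the spread between libraries. In bulk RNA, fewer cells of a type and less RNA per cell cannot be told apart.

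Leucine is a branched-chain EAA, as are isoleucine and valine. It enters mammary cells mainly through exchangers of large neutral amino acids, it is sensed by sestrin and by leucyl-tRNA synthetase upstream of the kinase complex mTORC1, and mTORC1 sets the rate at which ribosomes start translation of milk proteins and other proteins. When an amino acid is short, uncharged tRNA activates the kinase GCN2, which raises translation of the transcription factor ATF4 and transcription of its targets. The deposited table names genes by Ensembl bovine identifiers (27570) or by running names of its own (1980), and none of them could be paired with a symbol. Levels of the genes of these pathways, of caseins and of markers of epithelial cells or fibroblasts were therefore not analysed here, and results are given as counts of genes and for 4 identifiers.

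The Leu libraries held fewer detected genes than NEG. Leu_1 had 10495 genes with an FPKM above 0, and Leu_2 to Leu_6 had 16716, 16264, 15747, 16278 and 16124. The NEG libraries had between 16596 and 17707, with a median of 17329. Only Leu_2 reached into the range of NEG, where NEG_2 was the lowest library. Over the 12 treatments, Leu had the lowest median, 16194, and the others had medians of 16618 (His) to 17849 (Thr). Without Leu_1 the mean was 16226 ± 348 (SD, n = 5) in Leu and 17271 ± 388 (SD, n = 6) in NEG, a difference of −1045 genes (two-sided exact permutation test, p = 0.0087, where 0.0043 is the smallest p of 5 against 6). Reads on genes, recovered from the FPKM, numbered 12006023 in Leu_1, 14675518 to 16608797 in Leu_2 to Leu_6 and 15907875 to 17910729 in NEG. With all libraries thinned to 12006023 reads the means were 16030 and 16874 genes (exact permutation test, p = 0.0087). Among the 12121 genes tested, those whose FPKM averaged 1 or more over the 72 libraries, 2384 were at 0 in Leu_1, between 86 and 157 in the other Leu libraries and between 46 and 173 in NEG. Among the NEG libraries, NEG_2 stood apart from the rest. The chi-square per degree of freedom of read counts between libraries was 102 to 112 in the 5 pairs with NEG_2 and 3.03 to 5.58 in the 10 other NEG pairs, while in Leu it was 260 to 326 with Leu_1 and 6.85 to 23.4 without it.

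**Figure D1:**
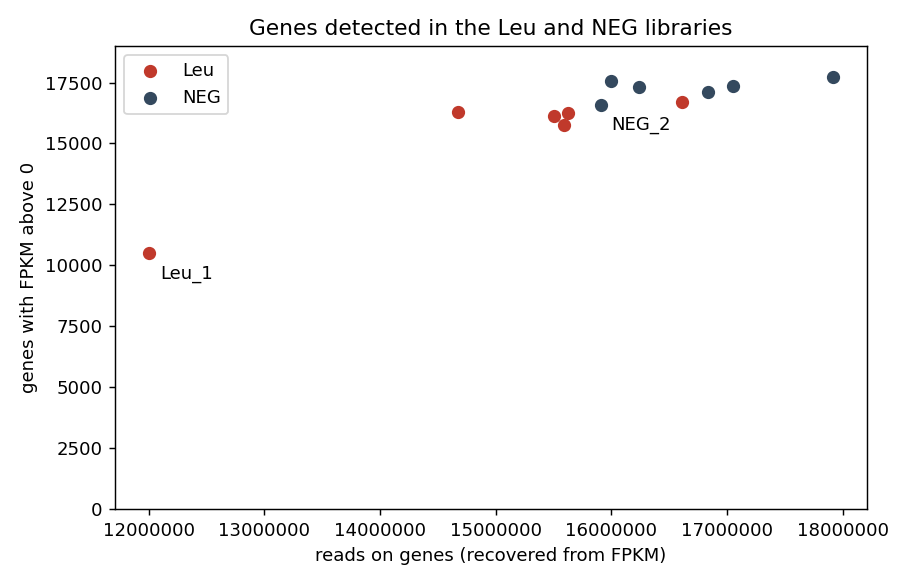
Genes with an FPKM above 0 (vertical axis) against reads on genes (horizontal axis) in the 6 Leu (red) and 6 NEG (dark) libraries, 1 point each. Leu_1, with 10495 genes, lies far below the other 11 libraries, which hold 15747 to 17707.

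Most of the genes that changed by leucine were lower than in NEG. A gene was called when its Benjamini-Hochberg adjusted p by limma was under 0.05 and its log2 fold change on log2(FPKM + 1) was over 1 in size, and 147 genes rose (1.21% of the 12121 tested) while 829 fell (6.84%). The rises had a median log2 fold change of 1.14 and reached 2.38, and the falls had a median of −1.20 and reached −3.69. A change over 4-fold on this scale was seen in 3 of the 147 rises and 24 of the 829 falls. Without the limit on the fold change, 3138 genes were higher and 4516 lower at the adjusted p. The median over all genes tested was −0.09 with the deposited scaling and −0.001 with libraries scaled by total reads. Falls outnumbered rises under every alternative run against NEG, but their share varied. Rises were 15.1% of the calls with the deposited scaling, 15.3% (148 higher, 821 lower) with rescaling by median ratios, 30.1% (251 higher, 583 lower) with libraries scaled by total reads, 33.3% (487 higher, 977 lower) by voom on the recovered reads, and 31.8% (537 higher, 1150 lower) with the number of detected genes as a covariate. Voom changes the model as well as the scaling, and the covariate changes the model alone. Only Leu_2 reached into the NEG range of detected genes, so this covariate goes largely with the treatment. Its counts are therefore not readily compared with the others. Without NEG_2, 138 genes were higher and 726 lower.

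**Figure D2:**
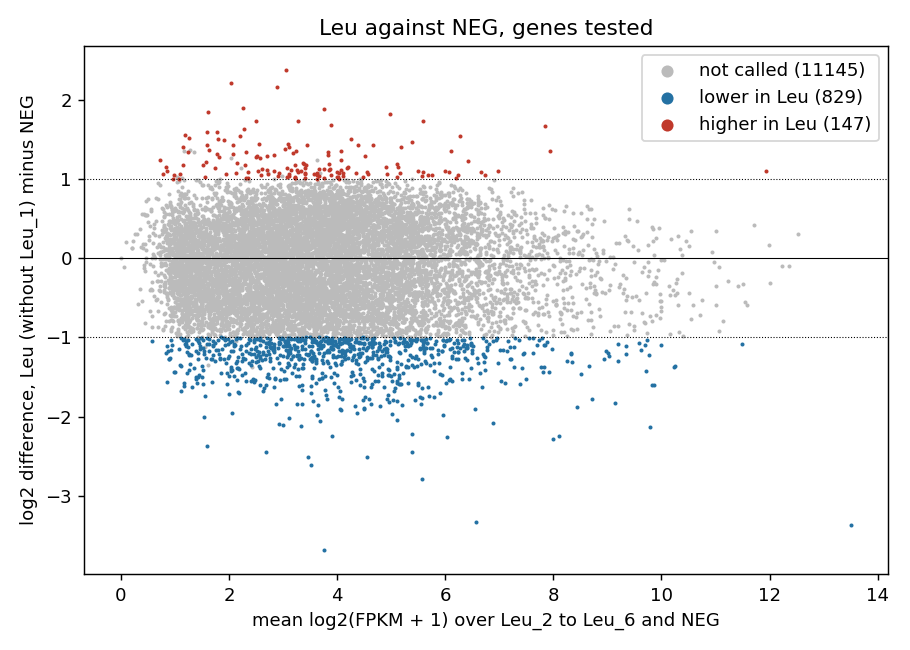
Log2 difference of Leu without Leu_1 minus NEG (vertical axis) against the mean log2(FPKM + 1) of the 11 libraries (horizontal axis) for the 12121 genes tested, with dotted lines at the limits of 1 and −1. The 829 genes lower in Leu (blue) spread further from 0, down to −3.69, than the 147 genes higher in Leu (red), up to 2.38.

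The falls covered genes at all levels and took a larger share among abundant ones. With genes divided by their mean FPKM over all 72 libraries, the share of lower genes was 4.59% of 2093 genes between FPKM 1 and 3, 6.12% of 3576 genes between 3 and 10, 7.15% of 3749 between 10 and 30, 8.60% of 1965 between 30 and 100 and 10.4% of the 738 genes at 100 or more. The share of higher genes had no such course, with 0.86%, 1.37%, 1.49%, 1.02% and 0.542% in the same classes. A pseudocount of 1 holds the fold changes of the lowest genes down, which bears on the first class most. Most calls were of genes with reads in all 11 libraries, but less so among the rises. Of the falls, 789 of 829 were above 0 in all 11 libraries, 40 were at 0 in at least 1 Leu library and 2 in all 5. Of the rises, 121 of 147 were above 0 in all 11 libraries, 26 were at 0 in at least 1 NEG library and 3 in at least 1 Leu library. The same counts were not made over all genes tested. The FPKM ranges of Leu and NEG did not overlap in 779 of the falls and 106 of the rises, while over all genes tested they did not overlap in 46.4%. By kind of identifier, 1.20% of the 11659 Ensembl genes rose and 6.96% fell, against 1.52% and 3.68% of the 462 genes with running names.

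With Leu_1 in the fit, 313 genes rose (2.58%) and 1564 fell (12.9%). The rises shared with the fit without it were 101, which is 68.7% of the 147 and 32.3% of the 313. The shared falls were 798, which is 96.3% of the 829 and 51.0% of the 1564. Of the 766 falls gained with Leu_1, 334 were at 0 in that library. Leu_1 took no part in the calls made without it, though it counted in the mean FPKM over all libraries that chose the genes tested. It is also set against the same NEG libraries. In the genes lower in Leu, Leu_1 lay below the NEG mean in 822 of 829, with a median log2 difference from NEG of −3.02, and 391 of them were at 0. In the genes higher in Leu, it lay above the NEG mean in 99 of 147 (67.3%), with a median of 1.64, and 44 were at 0. Over all genes tested, Leu_1 lay below the NEG mean in 59.9%, and 19.7% were at 0. Among genes above 0 in Leu_1, a cut that uses its own value, it lay below NEG in 431 of 438 falls, above NEG in 99 of 103 rises and above NEG in 49.9% of all genes tested. The median SD of a gene within the treatment was 0.151 on the log2 scale in Leu_2 to Leu_6, 0.204 in NEG and 0.43 in Leu with Leu_1.

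**Figure D3:**
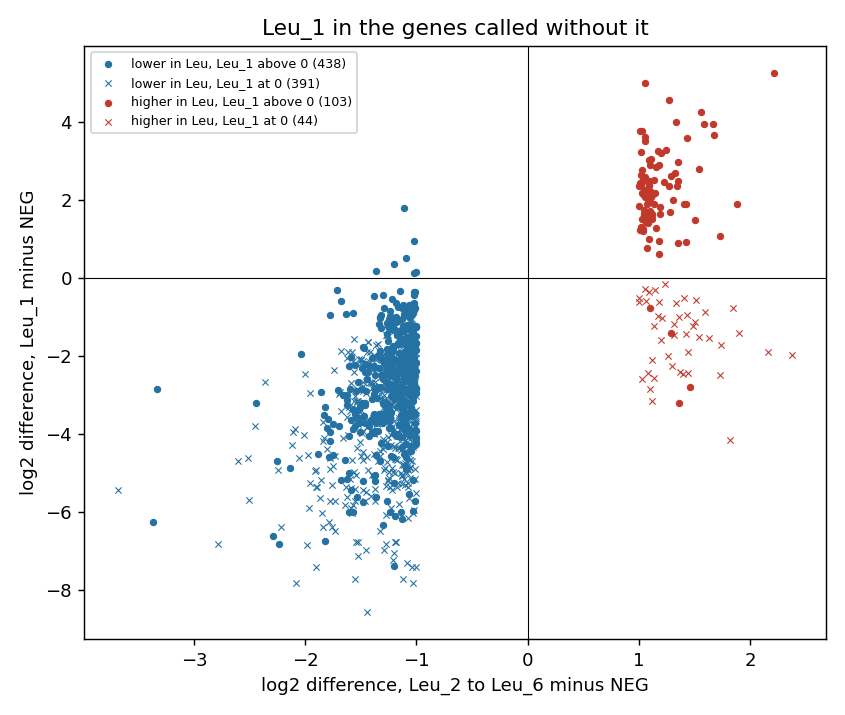
Log2 difference from the NEG mean in Leu_1 (vertical axis) against that of Leu_2 to Leu_6 (horizontal axis) for the 147 genes higher (red) and 829 genes lower (blue) in Leu, crosses marking genes at 0 in Leu_1. Genes above 0 in Leu_1 lie on the same side of NEG in 99 of 103 rises and 431 of 438 falls, and the 44 crosses among the rises lie below 0.

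Leucine was then set against the other single amino acids directly, in 1 limma fit of the 59 libraries of the 10 single-EAA treatments without Leu_1, which holds no NEG library. The treatments with the fewest genes called against Leu were His, with 10 (8 higher and 2 lower in Leu, 0.0825% of those tested), and its isomer Ile, with 11 (3 higher, 8 lower, 0.0908%). Met and Trp each had 50 (0.413%), of which 21 and 19 were higher in Leu. Val, the third branched-chain EAA, had 63 (23 higher, 40 lower, 0.52%) and Lys 77 (32 higher, 45 lower, 0.635%). The count for Val was not repeated without Val_3, which stood apart in genes named below. In the genes called in Leu against NEG, the median log2 differences of Val from NEG (1.08 and −1.22) lay nearest to those of Leu (1.14 and −1.20). Arg had 177 (116 higher, 61 lower, 1.46%), but this balance rested on Arg_4, which had 11838 genes above 0 where the other Arg libraries had 16150 to 17403. Without Arg_4, 202 genes were called, 58 higher and 144 lower in Leu. Phe and Thr stood furthest from Leu, with 635 genes (98 higher, 537 lower, 5.24%) and 962 genes (223 higher, 739 lower, 7.94%). At the adjusted p with any fold change, Leu differed from Ile in 313 genes, from His in 678, from Val in 1371 and from Thr in 7855. A smaller count does not show that treatments act alike, since the spread within treatments differed, with a median SD of 0.129 in Thr and 0.385 in Arg (0.215 without Arg_4), and all groups shared 1 estimate of it.

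**Figure D4:**
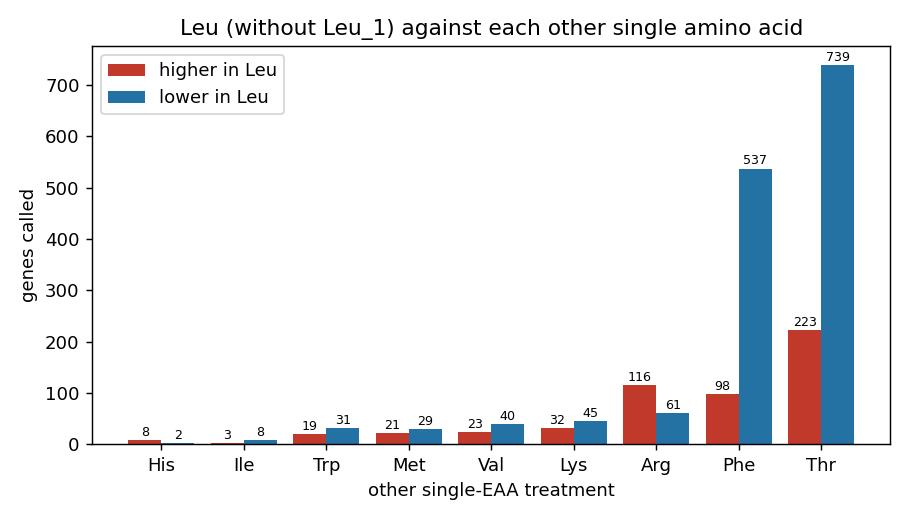
Number of genes called higher (red) and lower (blue) in Leu than in each of the 9 other single-EAA treatments, from 1 fit of the 10 treatments without Leu_1. His (8 and 2) and Ile (3 and 8) have the fewest, and Phe (98 and 537) and Thr (223 and 739) the most, mainly genes lower in Leu, while Arg (116 and 61) is drawn with Arg_4, without which it has 58 and 144.

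Genes changed by leucine beyond the other 9 were a small share of those tested. A gene counted as beyond when it was called against NEG, differed from the mean of the 9 other treatments in the same direction (adjusted p under 0.05, log2 difference over 1) and had a Leu mean past each of the 9 other means. This held for 13 genes that were higher (0.107%) and 18 that were lower (0.149%). The FPKM ranges of Leu and NEG did not overlap in 7 of the higher and 9 of the lower ones, against 46.4% of all genes tested. At least 1 of Leu_2 to Leu_6 was at 0 in 8 of the lower genes and in 0 of the higher ones. Their log2 differences from the mean of the 9 lay between 1.03 and 1.51 in the higher genes and between 1.04 and 1.54 in size in the lower ones. The distance to the next treatment was smaller, with a median log2 difference of 0.46 for the higher genes and 0.54 for the lower ones. That next treatment was Val in 6 and Ile in 4 of the 13 higher genes, and His or Val in 5 each of the 18 lower ones. In none of the 31 genes did all 5 Leu libraries lie past all 54 libraries of the other 9 treatments, and no Leu library did so in 6 of the higher and 15 of the lower genes. The 54 include Arg_4, with 11838 genes above 0, and where a library was at 0 no Leu library could lie below it. These counts were not made without Arg_4. The mean FPKM of these 31 genes had a median of 6.98 for the higher and 5.82 for the lower ones, against 11.2 for all genes tested. Under 100 reads in the median library of both Leu and NEG were found for 8 and 10 of them. Such medians were as low as 4 in Leu and 2 in NEG for a higher gene (ENSBTAG00000036380) and 0 and 1.5 for a lower one (ENSBTAG00000053248). At 0 in Leu_1 were 8 of the 13 and 15 of the 18, as were 19.7% of all genes tested. The number of lower genes depended on the settings. With Leu_1 the counts were 10 higher and 198 lower, with a pseudocount of 0.1 they were 13 and 86, and by voom 21 and 70. Without NEG_2 they were 14 and 19, and without Arg_4 they were 13 and 20. Without Phe and Thr among the others, which stood furthest from Leu, 9 higher and 7 lower genes were beyond. No gene was called by limma against each of the 9 treatments in turn, and voom on the recovered reads also gave 0. At an unadjusted p under 0.05 this held for 1 gene higher and 1 lower, and at the adjusted p with any fold change for 24 higher and 16 lower.

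The 4 identifiers that follow had the largest changes from NEG, 2 in each direction, among the genes beyond whose FPKM ranges did not overlap with NEG. For ENSBTAG00000027213 the FPKM was 14.6, 29.0, 20.6, 32.5 and 45.1 in Leu_2 to Leu_6 and 26.5 in Leu_1. In NEG it had a lowest value of 3.98, a median of 6.12 and a highest value of 12.2, in NEG_2, so every Leu library was above every NEG library. The mean FPKM of Leu was 4.12-fold that of NEG. On the log2 scale the rise was 1.88 with a standard error of 0.29 (limma, adjusted p = 0.00013), and with Leu_1 it was also 1.88 (limma, adjusted p = 5e-04). The reads behind it numbered 159 to 471 per library in Leu and 40 to 108 in NEG. Against the mean of the other 9 treatments the log2 difference was 1.43 with a standard error of 0.33 (limma, adjusted p = 0.00069). The order of the mean log2(FPKM + 1) was Leu (4.78), His (4.62), Arg (4.22), Met (3.43), Lys (3.35), Val (3.34), Ile (3.27) and Trp (3.04), then NEG (2.90), POS (2.85), Phe (2.44) and Thr (2.43). His, from 12.7 to 43.5 in FPKM, overlapped with nearly the whole range of Leu, and 1 Leu library lay above all 54 of the other 9 treatments. The first place of Leu rested on single libraries. Without Leu_6 its mean was 4.59, below His, and without His_2 the mean of His was 4.79, above Leu, so in both cases the gene was no longer beyond the others.

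ENSBTAG00000054340 set leucine apart more clearly. Its FPKM was 45.0, 53.9, 70.3, 68.4 and 74.3 in Leu_2 to Leu_6, against a lowest value of 13.1, a median of 16.9 and a highest value of 20.9 in NEG. Leu_1 was at 0, with no read, where the other Leu libraries had 229 to 363 reads. Without Leu_1 the mean FPKM was 3.69-fold that of NEG, and the rise on the log2 scale was 1.82 with a standard error of 0.15 (limma, adjusted p = 2e-06). With Leu_1 the log2 fold change was 0.82 and the call was lost (adjusted p = 0.45 by limma). The log2 difference from the mean of the other 9 was 1.51 with a standard error of 0.23 (limma, adjusted p = 1.3e-06), and 4 of the 5 Leu libraries lay above all 54 libraries of the other treatments. Ile (33.3 ± 8.95 FPKM, SD, n = 6), Val (31.3 ± 10.2) and His (31.2 ± 10.2) came next, at about the same level, and their highest libraries reached 44.2, 44.2 and 47.2. Lys had 17.8 ± 7.16, near NEG with 16.9 ± 3.15, while Phe (13.3 ± 2.57), Thr (12.6 ± 2.28) and POS (11.2 ± 5.10) were lowest. In complete medium, which holds leucine at the same level, the highest library had 18.2, below the lowest of Leu_2 to Leu_6.

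ENSBTAG00000046587 was the larger of the falls. Its FPKM was 23.2, 16.3, 12.8, 12.3 and 15.0 in Leu_2 to Leu_6 and 0 in Leu_1. NEG had a lowest value of 88.5, a median of 104 and a highest value of 206, again in NEG_2, so the groups were far apart. On the log2 scale Leu minus NEG was −2.78 with a standard error of 0.22 (limma, adjusted p = 1.4e-06), and the mean FPKM was 7.42-fold higher in NEG, on 123 to 253 reads in Leu_2 to Leu_6 and 959 to 1822 in NEG. From the mean of the other 9 treatments Leu differed by −1.22 with a standard error of 0.37 (limma, adjusted p = 0.0097). Other treatments were also well below NEG. Means of log2(FPKM + 1) were 4.05 in Leu, 4.68 in His, 4.69 in Val, 4.71 in Arg, 4.79 in Met and 4.85 in POS, then 5.24 in Trp, 5.25 in Ile, 5.26 in Lys, 6.28 in Phe and 6.47 in Thr, against 6.83 in NEG. The Val mean was raised by Val_3 (137 FPKM, where the other Val libraries had 15.3 to 19.6), and without it Val, at 4.21, was the treatment next to Leu. By medians Leu (15.0 FPKM) was followed by Val (18.4) and Met (18.7). Single libraries of POS (1.76 FPKM), Arg (Arg_4, 4.41), Met (10.1) and His (11.6) lay below the lowest of Leu_2 to Leu_6, and no Leu library among these 5 was below all 54 of the 9 single-EAA treatments.

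ENSBTAG00000007812 had the same order at its ends. Leu_2 to Leu_6 had an FPKM of 3.99, 3.22, 3.37, 2.58 and 3.31, a narrow range, and Leu_1 had 0. NEG ran from 14.9 over a median of 22.2 to 44.9, the last once more in NEG_2. Leu minus NEG was −2.52 on the log2 scale with a standard error of 0.21 (limma, adjusted p = 2e-06), with 50 to 84 reads in Leu_2 to Leu_6 and 312 to 768 in NEG. Against the other 9 treatments the log2 difference was −1.06 with a standard error of 0.34 (limma, adjusted p = 0.014). The median of His, 3.08 FPKM, and that of Met, 3.24, were below the median of Leu_2 to Leu_6 (3.31), so Leu was lowest by the mean and not by the median. That rested on His_1, at 16.7 FPKM. Without it the log2 mean of His was 2.01, below that of Leu (2.09), and the gene was no longer beyond the others. The same held without Leu_5, where the log2 difference from the other 9 was −0.99 and missed the limit of 1. The medians of Phe (15.5) and Thr (19.2) stayed closer to NEG.

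**Figure D5:**
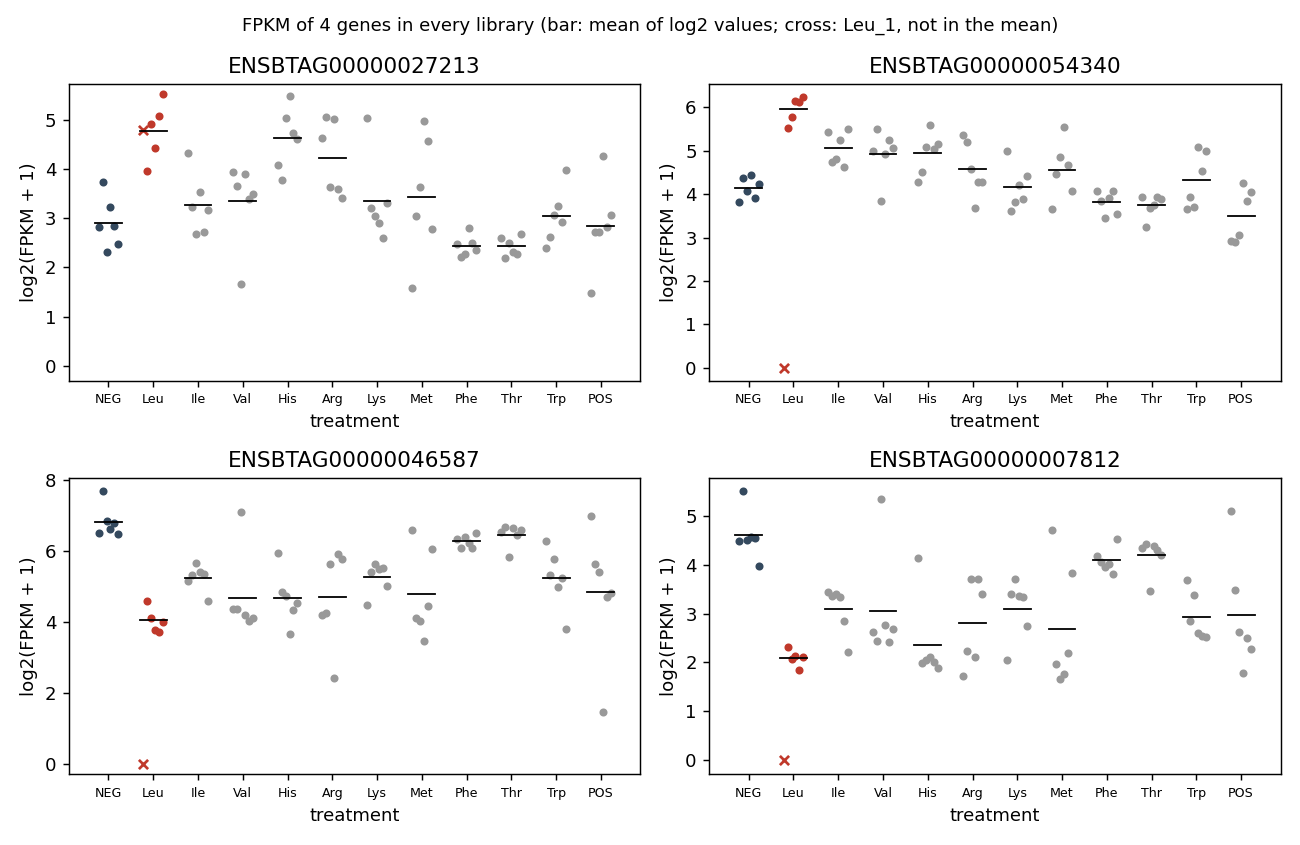
Log2(FPKM + 1) of the 4 identifiers in each library of the 12 treatments, 1 point per library, with Leu in red, NEG dark, a bar at the mean of the log2 values and a cross for Leu_1, which is not in the mean. Leu has the highest mean of all 12 treatments for ENSBTAG00000027213 and ENSBTAG00000054340 and the lowest for ENSBTAG00000046587 and ENSBTAG00000007812, with overlap of single libraries of other treatments in all 4.

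The genes called in Leu were followed through the other media, each set against the same NEG libraries. Among the 147 genes higher in Leu, with a median log2 difference from NEG of 1.14 in Leu, the median was 1.08 in Val, 0.74 in Ile, 0.75 in His, 0.66 in Met, 0.61 in Trp, 0.52 in Arg and in Lys, 0.43 in POS, 0.27 in Phe and 0.11 in Thr. Those above NEG numbered 145 in Ile, 143 in Val, 112 in POS and 93 in Thr. Among the 829 genes lower in Leu, with a median of −1.20 there, Val had −1.22, His −0.99, Met −0.91, POS −0.86, Trp and Arg −0.84, Ile −0.77, Lys −0.69, Phe −0.30 and Thr −0.21. Of these, 821 were below NEG in Val and 682 in Thr. These media share their controls with Leu, and the genes were chosen in Leu, so the values are a description and were not tested.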

How the data were processed

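RNA-seq of BMECs after 6 h of treatment was used, 72 libraries in all. The authors deposited FPKM (fragments scaled to gene length and library size) for 29550 genes. Per the labels they used HISAT2 (version 2.0.5), StringTie (version 1.3.3b), featureCounts (version 1.5.0-p3) and DESeq2 (version 1.20.0). Build: not given in the sources used here. Of the identifiers, 0 were found in a reference table of 37063 bovine genes, so 25 planned lists of gene symbols were not used. For all 23683 genes above 0 the FPKM gave back whole reads, with 100.0% of values within 0.001 of a whole number. They gave 12006023 to 18602422 reads on genes per library.

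Leu_2 to Leu_6 were compared with NEG in R (version 4.3.3) by limma (version 3.58.1, trended prior). The scale was log2(FPKM + 1), which understates changes of low genes, and the 12121 genes averaged an FPKM of 1 or more. The paper's limit on p does not say whether it is adjusted, and the adjusted p was used here. On simulated reads for each comparison (12121 genes, 200 changed 4-fold), 97% of the changed genes were recovered, and 2 unchanged genes were called in Leu against NEG. Only 3 of the 147 rises and 24 of the 829 falls were over 4-fold. The 97% therefore does not measure how well changes near the limit were recovered. The treatments' fit of 59 libraries held no NEG or POS. Python (version 3.11.15) with scipy (version 1.17.1) gave the exact permutation tests and matplotlib (version 3.10.9) the figures. The members, limits and the rule for naming the 2 largest rises and 2 largest falls were chosen with earlier results of these data known. Without symbols the rule took identifiers among the genes beyond the other 9 with ranges apart from NEG. Scaling by total reads, voom on the recovered reads, thinning, the contrast without Phe and Thr and, for the genes beyond the others, leaving out each NEG library and each library of the 9 treatments except Arg_4, Leu against Arg without Arg_4 and the named genes without each library were added after the data were seen. The labels and the paper name different library kits, culture plates and media supplements, shared by all libraries, and for counting the paper names htseq-count and Cufflinks, not featureCounts. No pair of Leu or of NEG libraries agreed within sampling noise, so none was counted as 1 library deposited again.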

Additional observations from a re-analysis of the deposited data

Results flagged for a closer look

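In the test of Leu against the mean of the other 9 treatments, 14 genes were higher and 27 lower. Of these, 13 and 21 were also called against NEG, and 13 and 18 had a Leu mean past each of the 9 other means as well. For the 4 named genes the log2 differences in this test were 1.43 for ENSBTAG00000027213, 1.51 for ENSBTAG00000054340, −1.22 for ENSBTAG00000046587 and −1.06 for ENSBTAG00000007812.

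The highest and lowest library of each treatment were also tested by Dixon's test, on detected genes and reads in Leu and NEG and on the FPKM of the 4 genes in all 12 treatments. Leu_1 stood apart in detected genes (10495), which is the value for which it had been set aside and so no test. In the 51 other groups a library stood apart in 13, where chance gives about 1 in 20, but these groups are not independent, since libraries recur across genes. Leu_1 was the lowest in ENSBTAG00000007812 (0). For ENSBTAG00000046587 the libraries were NEG_2 (206), His_1 (60.8), Val_3 (137) and POS_1 (128) as the highest and Thr_3 (56.5) as the lowest. The same 5 libraries stood apart, on the same sides, in ENSBTAG00000007812, with an FPKM of 44.9 in NEG_2, 16.7 in His_1, 39.9 in Val_3, 33.7 in POS_1 and 10.1 in Thr_3. For ENSBTAG00000027213 they were Lys_1 (31.7) and POS_4 (18.1). The cause was not tested.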

How the results depend on the processing

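The main counts were 147 higher and 829 lower genes against NEG and 13 higher and 18 lower genes beyond the other 9. Against NEG they were 313 and 1564 with Leu_1, 276 and 1281 with a pseudocount of 0.1, 81 and 514 at a mean FPKM of at least 10, which tests fewer genes, and 3138 and 4516 with no limit on the fold change. Higher genes numbered 537 with detected genes as a covariate, 251 with scaling by total reads and 487 by voom. Beyond the others, lower genes were 198 with Leu_1, 86 with a pseudocount of 0.1, 70 by voom (21 higher), 6 at a mean FPKM of at least 10 (6 higher), 7 without Phe and Thr, and 0 against each of the 9 (0 higher). Against Arg, 116 higher and 61 lower genes became 58 and 144 without Arg_4. Apart from these limits by construction, the cause was not tested. With the replicate block the counts were 154 and 834 against NEG and 13 and 17 beyond the others, and it changed no call of the 4 named genes. What equal replicate numbers share is not stated. Correlations of deviations were between −0.013 and 0.097 over 5 pairs, too low for the numbers to be used as pairs here, though 3 of the 5 Leu libraries correlated best with their own number. Leaving out each of Leu_2 to Leu_6 and NEG in turn gave 126 to 201 higher and 726 to 965 lower genes against NEG. Beyond the others, leaving out each of these or of the 54 libraries of the 9 treatments gave 9 to 19 higher and 15 to 21 lower genes, all within 1.5 times. The lower number of detected genes in Leu kept its direction and its side of 0.05 in 14 of 14 alternatives. Against NEG the 4 named genes kept their direction in all 19 alternatives each, and the call was lost once, for ENSBTAG00000054340 with Leu_1 (0.82). With each of 65 libraries left out, ENSBTAG00000054340 and ENSBTAG00000046587 stayed beyond the other 9, ENSBTAG00000027213 did not without Leu_6 or without His_2, and ENSBTAG00000007812 did not without Leu_5 or without His_1. Of the genes beyond the others, 8 higher and 10 lower ones had under 100 reads in the median library of both groups, which limits their precision.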

Other observations

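Over the 12121 genes tested, Leu without Leu_1 had the highest mean of the 10 single-EAA treatments in 1699 genes (14.0%) and the lowest in 2037 (16.8%). Thr was highest in 31.4% and lowest in 21.9%, and Val in 15.9% and 21.5%. The treatments with the fewest extreme means were Lys (1.67% and 2.54%) and Trp (2.33% and 2.35%). Among the 147 genes higher in Leu than in NEG, Leu had the highest mean in 79 and Val in 59, and among the 829 lower genes Leu had the lowest in 379 and Val in 352. The 147 and 829 genes were chosen for being high or low in Leu, which favours Leu in these 2 counts. All are ranks of means without a test, and the spread of a treatment enters them.

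Of the 20 largest rises from NEG with ranges that did not overlap, 5 were beyond the other 9 treatments and 8 were at 0 in Leu_1. Of the 20 largest falls, 4 were beyond the others and 13 were at 0 in Leu_1. Only called genes could be beyond the others, so the 5 and 4 stand beside 13 of the 147 rises and 18 of the 829 falls. Over all genes tested, 0.107% were higher and 0.149% lower beyond the others, shares that this rule keeps low. At 0 in Leu_1 were 19.7% of all genes tested, 29.9% of all rises and 47.2% of all falls.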
